A study of Mus musculus with 12 samples.

Results

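Striatal gene expression of mice sensitised to morphine with sodium butyrate was compared with that of mice sensitised to morphine without it. The comparison takes the arrays by their labels: 3 arrays titled as butyrate-morphine and 3 titled as morphine, 6 of the 12 arrays of the series, over the 21780 probe sets that carry exactly 1 gene symbol. Each array (Affymetrix Mouse Gene 1.0 ST) held RNA pooled from 4 male Swiss-Albino mice of 2 months. In the butyrate-morphine group every induction trial (6 in all, on alternate days) began with sodium butyrate at 300 mg/kg, followed at once by morphine at 20 mg/kg. The morphine group received saline in place of butyrate. Both groups were challenged with morphine alone, at 20 mg/kg, 7 days after induction ended, and RNA was taken 1 h later from tissue cut from anterior coronal slices. The remaining 6 arrays are of saline-injected mice, to which all deposited values are relative; the labels conflict on whether their challenge was saline or morphine. None of the 12 arrays is of mice given butyrate without morphine. The comparison asks whether striatal expression after the challenge differed with butyrate during induction. A lasting effect of butyrate by itself and an altered response to morphine cannot be told apart.

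Butyrate is a short-chain fatty acid that inhibits histone deacetylases, the enzymes that remove acetyl groups from histones, and it is widely used to test whether raised acetylation makes genes easier to induce. Morphine acts through the mu-opioid receptor and raises dopamine release in the striatum, whose projection neurons carry either D1 or D2 dopamine receptors. Repeated injections enlarge the locomotor response to the drug, a process called behavioural sensitization. A challenge injection also switches on immediate early genes in these neurons and releases glucocorticoids from the adrenal gland.

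No probe set passed the threshold. Limma called 0 of 21780 (0%) at a Benjamini-Hochberg adjusted p under 0.05, and the smallest adjusted p was 0.86. At an unadjusted p under 0.05 there were 1216 probe sets (5.58%), where the nominal rate gives 1089. Without butyrate-morphine array 2 that count was 706, and without morphine array 1 it was 1866. The values of the 2 groups did not overlap for 10.8% of probe sets, 7.73% with butyrate-morphine higher and 3.11% with it lower. Of the probe sets at an unadjusted p under 0.05, 910 (4.18% of those tested) were higher with butyrate and 306 (1.4%) lower, so 74.8% were higher. That lean depended on scaling, since the share was 57.4% after each array was centred on its median and 54.0% after quantile normalization. Differences were small: 3 probe sets differed by 1.5-fold or more. The median standard error of a difference was 0.059 on the log2 scale. All values below are therefore descriptions of these 6 arrays, and every difference named here missed the adjusted threshold.

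**Figure D1:**
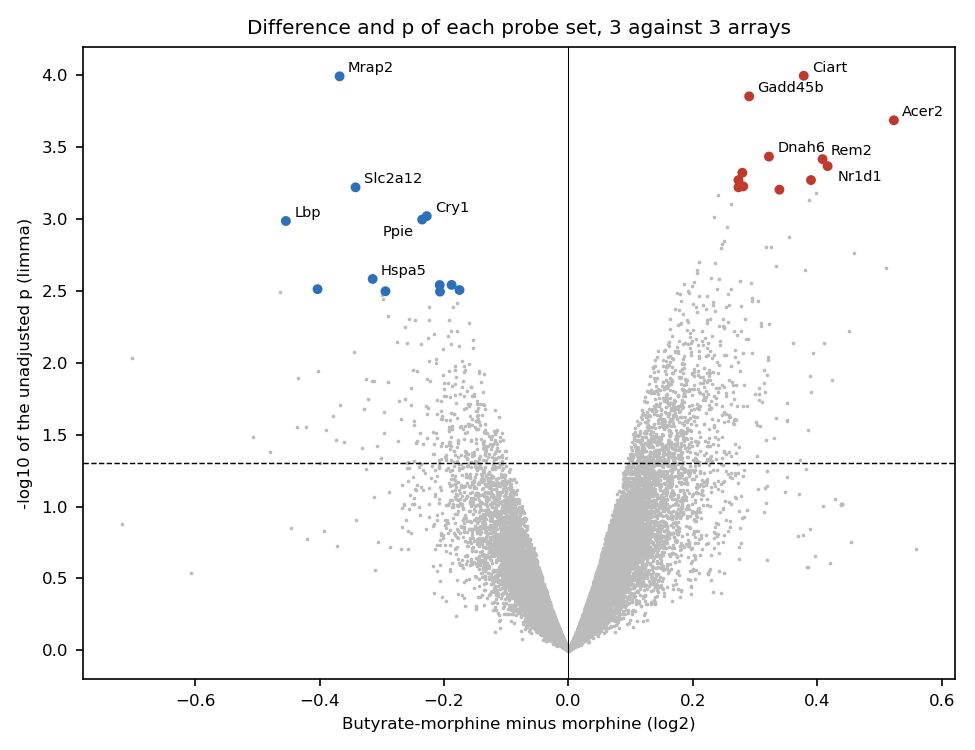
Difference between the groups (x axis, butyrate-morphine minus morphine, log2) against the -log10 of the unadjusted limma p (y axis) for 21780 probe sets. Coloured points are the 12 genes of lowest p higher with butyrate (red) and the 12 lower with it (blue), the dashed line marks an unadjusted p of 0.05, and 910 points above it lie to the right against 306 to the left.

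The 6 arrays were not equally alike. Over all tested probe sets morphine array 2 was the least like the others (Pearson r across probe sets of 0.13 to 0.41, lowest with butyrate-morphine array 2), while butyrate-morphine array 1 and morphine array 3 correlated at 0.68. Array medians lay between -0.0153 and 0.0136. The deposited values are differences from a baseline of saline arrays, which removes each gene's own level. Only a class of values stored as 8 or more before centring could be read, from the rounding step. That class held the striatal genes Drd1, Drd2, Ppp1r1b and Penk but not Pdyn. The levels of striatal markers could not be checked more finely. The sources used here do not tell which saline arrays served as baseline for which array. Were the baselines of the 2 groups different, that difference and the effect of butyrate cannot be told apart. In pooled bulk tissue, fewer cells of a type and less RNA per cell cannot be told apart either. The labels call the arrays of a group biological replicates, and p-values rest on the spread among 3 such pools per group, which may hold technical variation.

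Among genes higher with butyrate, the lowest p-values belonged to a clock repressor, a stress-induced gene and a ceramidase. Ciart, which encodes a repressor of the circadian clock, stood at 0.65, 0.55 and 0.53 in the butyrate-morphine arrays and 0.17, 0.19 and 0.25 in the morphine arrays (log2 from baseline, probe set 10500272). All 3 butyrate-morphine arrays lay above all 3 morphine arrays, with a difference of 0.38 (95% interval 0.26 to 0.50, unadjusted p = 0.000101). Intervals here and below are those of limma on the log2 scale. A further probe set of Ciart gave 0.40. Gadd45b, a stress- and activity-induced gene linked to DNA demethylation, was at 0.23, 0.22 and 0.22 in the butyrate-morphine arrays and -0.10, -0.05 and -0.05 in the morphine arrays. The butyrate-morphine values lay above the baseline and the morphine values below it, and they differed by 0.29 (95% interval 0.20 to 0.39, unadjusted p = 0.00014). Acer2, an alkaline ceramidase of the Golgi, had the largest difference of the 24 leading genes, 0.52 (95% interval 0.34 to 0.70, unadjusted p = 0.000206), with values of 0.69, 0.74 and 0.73 in the butyrate-morphine arrays and 0.10, 0.38 and 0.12 in the morphine arrays. Its other probe set did not show this, at 0.03.

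Rbm3, an RNA-binding protein gene induced by mild cold, differed by 0.39 (95% interval 0.23 to 0.55, unadjusted p = 0.000536). Its values were 0.53, 0.40 and 0.58 in the butyrate-morphine arrays and 0.02, 0.19 and 0.12 in the morphine arrays, without overlap, and its other 2 probe sets differed by 0.39 and 0.32. Rem2, a small GTPase that restrains voltage-gated calcium channels, was above the baseline with butyrate and below it without, at 0.12, 0.21 and 0.31 in the butyrate-morphine arrays and -0.26, -0.23 and -0.10 in the morphine arrays, a difference of 0.41. Isg20l2 (an exonuclease of ribosome assembly, 0.28), Rpl34 (a ribosomal protein gene with processed copies in the genome, 0.34), Gltp (a glycolipid transfer protein, 0.27) and Dnah6 (an axonemal dynein heavy chain, 0.32) were near or above the baseline with butyrate and below it in all 3 morphine arrays. Further probe sets of Dnah6 differed by 0.16 and 0.19, with overlap between groups. Strip2 (0.28) and Mfsd13a (0.27) completed the 12, with the clock receptor Nr1d1 described below.

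**Figure D2:**
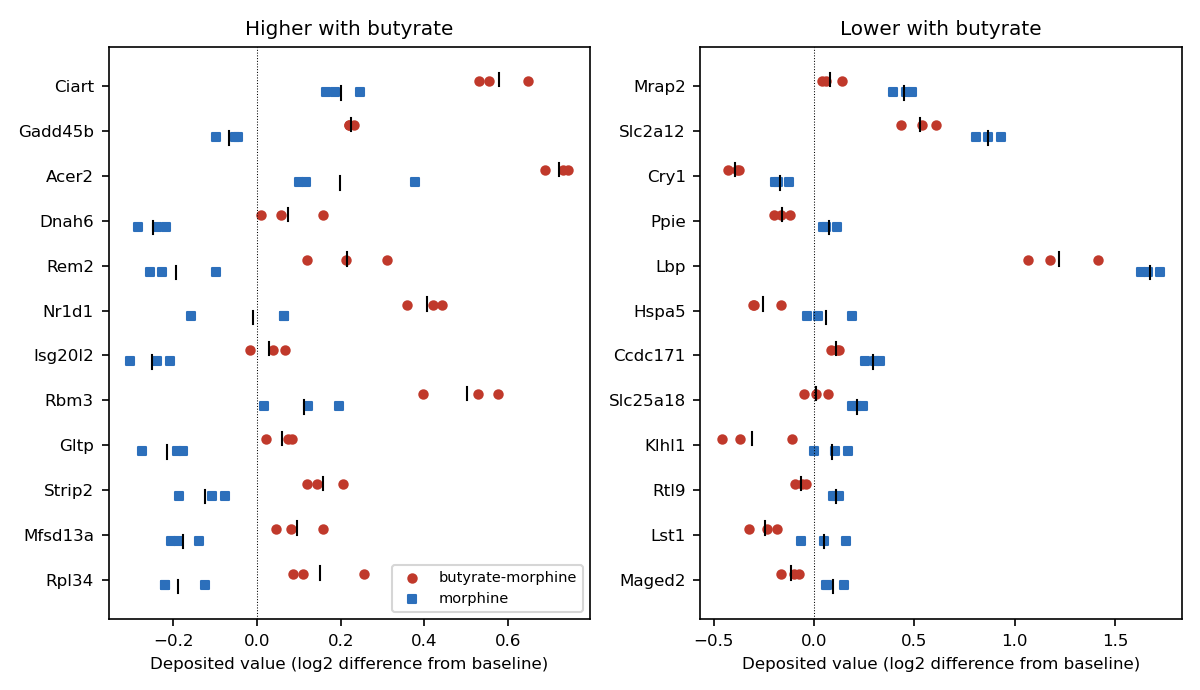
Deposited value (log2 difference from baseline, x axis) of each of the 6 arrays for the 24 leading genes, with butyrate-morphine arrays as red circles, morphine arrays as blue squares and group means as black bars. The groups do not overlap for any gene shown, as the choice of genes required, and Lbp and Slc2a12 were above the baseline in both groups.

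Of the genes lower with butyrate, several were above the baseline after morphine alone and closer to it with butyrate. Mrap2, an accessory protein of melanocortin and ghrelin receptors, was at 0.04, 0.06 and 0.14 in the butyrate-morphine arrays and 0.39, 0.49 and 0.46 in the morphine arrays, a difference of -0.37 (95% interval -0.48 to -0.25, unadjusted p = 0.000102). Slc2a12, a glucose transporter, was above the baseline in all 6 arrays, at 0.54, 0.43 and 0.61 in the butyrate-morphine arrays and 0.81, 0.87 and 0.93 in the morphine arrays, with a difference of -0.34 (95% interval -0.48 to -0.20, unadjusted p = 0.000601). Lbp, the lipopolysaccharide-binding protein of the acute phase, showed the widest gap of these genes. It stood at 1.18, 1.07 and 1.41 in the butyrate-morphine arrays and 1.63, 1.72 and 1.66 in the morphine arrays, and the difference of -0.45 leaves the butyrate-morphine mean at 0.73 of the morphine mean (95% interval -0.66 to -0.25 on the log2 scale, unadjusted p = 0.00103). Choroid plexus markers were lower in the same arrays, and their part in these differences was not tested.

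Slc25a18, a mitochondrial glutamate carrier of astrocytes, was near the baseline with butyrate and above it without (0.01, -0.05 and 0.07 against 0.25, 0.22 and 0.19, a difference of -0.21). Klhl1, a neuronal actin-binding protein, was below the baseline with butyrate (-0.37, -0.11 and -0.46 against 0.10, 0.17 and 0.00, -0.40). The spliceosomal isomerase Ppie (-0.24), the melanoma antigen family member Maged2 (-0.21), Rtl9 (-0.18), Ccdc171 (-0.19) and the leukocyte gene Lst1 (-0.29) had differences of the same sign, also without overlap. The repressor Cry1 and the chaperone Hspa5, also among the 12, are given with their pathways. Of the 24 leading genes, 7 had all butyrate-morphine arrays above the baseline and all morphine arrays below it, an arrangement seen in 1.39% of all probe sets, and 4 had the reverse, seen in 0.491%. The choice of genes by p favours such arrangements.

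Clock genes were the gene list with the most members among the leading genes (Ciart, Nr1d1 and Cry1). In the circadian clock, the activators Clock and Bmal1 (gene Arntl) bind E-boxes and drive the Per and Cry repressors, Ciart, the nuclear receptor Nr1d1 and the output factors Dbp and Tef. The E-box letters CACGTG, which read the same on both strands, were sought in the 250 bases before each gene's start of the build GRCm38.p6, as RefSeq's promoter windows give them. Of 16 measured clock genes with such a window, 5 held it in any of their windows, beside 6.02% of all 32851 windows. The former counts genes, which can have several windows, and the latter is a share of single windows. The windows of 3 clock genes with low p are shown with E-boxes in capitals, because Ciart and Per1 were higher with butyrate while Cry1 was lower and all 3 carry the motif. They lie at chr3:95882229-95882478, minus strand (Ciart), chr11:69098699-69098948, plus strand (Per1, the upstream of its 2 starts) and chr10:85185055-85185304, minus strand (Cry1). The window of the downstream Per1 start holds none. The first base of each E-box is 116, 58 and 44 bases before the start of Ciart, 166 before that of Per1 and 60 before that of Cry1.
Ciart: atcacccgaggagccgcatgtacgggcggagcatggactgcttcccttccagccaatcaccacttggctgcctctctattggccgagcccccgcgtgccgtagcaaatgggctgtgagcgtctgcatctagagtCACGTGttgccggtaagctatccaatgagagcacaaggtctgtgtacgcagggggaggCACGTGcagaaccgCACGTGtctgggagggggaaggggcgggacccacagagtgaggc
Per1: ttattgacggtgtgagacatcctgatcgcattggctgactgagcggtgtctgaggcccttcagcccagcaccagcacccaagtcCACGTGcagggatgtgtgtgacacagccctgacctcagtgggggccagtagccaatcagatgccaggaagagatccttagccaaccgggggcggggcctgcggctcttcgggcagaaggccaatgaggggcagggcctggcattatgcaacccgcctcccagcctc
Cry1: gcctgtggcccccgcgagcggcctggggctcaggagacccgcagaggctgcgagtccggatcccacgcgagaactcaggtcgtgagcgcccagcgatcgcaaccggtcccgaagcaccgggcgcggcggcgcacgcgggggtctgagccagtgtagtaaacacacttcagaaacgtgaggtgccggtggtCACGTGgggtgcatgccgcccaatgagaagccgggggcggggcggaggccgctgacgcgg
The windows of Nr1d1 and Dbp, both higher with butyrate, hold no CACGTG. A match describes the letters and not a bound site.

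Nr1d1 (Rev-erb alpha), which represses Arntl, had the largest difference of the clock genes, 0.42 (95% interval 0.25 to 0.58, unadjusted p = 0.000428), with values of 0.36, 0.44 and 0.42 in the butyrate-morphine arrays and 0.06, -0.16 and 0.06 in the morphine arrays. Dbp, a clock-driven transcription factor, was at 0.28, 0.29 and 0.35 in the butyrate-morphine arrays and 0.06, -0.15 and 0.06 in the morphine arrays, a difference of 0.32 (95% interval 0.17 to 0.47, unadjusted p = 0.00156). In both genes the morphine arrays lay about the baseline and morphine array 2 was the lowest. Per1, a clock repressor that glucocorticoids and neuronal activity also induce, was above the baseline in all 6 arrays and higher with butyrate, at 0.58, 0.65 and 0.70 in the butyrate-morphine arrays and 0.38, 0.19 and 0.39 in the morphine arrays, by 0.33 (95% interval 0.17 to 0.48, unadjusted p = 0.00157). Cry1, the partner of the Per proteins, was below the baseline in all 6 arrays and lower with butyrate, at -0.38, -0.37 and -0.43 in the butyrate-morphine arrays and -0.13, -0.19 and -0.18 in the morphine arrays, a difference of -0.23 (95% interval -0.33 to -0.13, unadjusted p = 0.000953). Arntl was likewise lower, without overlap, at -0.35, -0.33 and -0.38 in the butyrate-morphine arrays and -0.15, -0.30 and -0.27 in the morphine arrays, though its interval included 0 (difference and interval -0.11, -0.23 to 0.02).

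Of 19 clock probe sets from 18 genes, 6 were higher with butyrate at an unadjusted p under 0.05 and 1 was lower, against 4.18% and 1.4% of all probe sets, and 0 passed the adjusted threshold. Without morphine array 1 the higher count was 10. It was 5 without butyrate-morphine array 1 or 3 or morphine array 2. Without morphine array 2 or array 3 the lower count was 2. The median difference of the list was 0.12, beside 0.011 over all probe sets. It was 0.075 without morphine array 2 and 0.19 without morphine array 1. The 6 were both Ciart probe sets, Nr1d1, Dbp, Per1 and Tef, an output factor whose arrays overlapped (difference 0.12). Members with intervals that included 0 were, among others (difference and interval in brackets), Per3 (0.10, 0.00 to 0.20), Per2 (0.12, -0.11 to 0.36), Nr1d2 (0.06, -0.07 to 0.20) and Clock itself (-0.01, -0.15 to 0.14).

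Most immediate early genes had a higher mean with butyrate. In 4 of 35 the arrays separated, all higher, beside 7.73% of all probe sets that separated in that direction. Of 35 measured, 32 had a higher mean, 6 had an unadjusted p under 0.05 (all higher) and 0 passed the adjusted threshold. Of all probe sets, 57% had a higher mean and 4.18% were higher on that criterion. The list's median difference was 0.10. The count of 6 ran from 4 (without butyrate-morphine array 2 or 3, or morphine array 3) to 10 without butyrate-morphine array 1 and 12 without morphine array 1. The mean over the list was 0.17, 0.24 and 0.40 in the butyrate-morphine arrays and 0.24, 0.06 and 0.10 in the morphine arrays, so morphine array 1 matched butyrate-morphine array 2 and the groups overlapped. Dusp1, a phosphatase that switches off MAP kinases, was at 0.96, 1.06 and 1.34 in the butyrate-morphine arrays and 0.82, 0.66 and 0.80 in the morphine arrays, higher with butyrate by 0.36 (95% interval 0.13 to 0.59, unadjusted p = 0.00729). Npas4, a transcription factor specific to neuronal activity, was at 0.87, 1.00 and 1.08 in the butyrate-morphine arrays and 0.79, 0.47 and 0.72 in the morphine arrays, higher by 0.32 (95% interval 0.11 to 0.53, unadjusted p = 0.00905). Gadd45b, given above, Gadd45g (0.19) and the matricellular gene Ccn1 (0.25), whose arrays overlapped, were among the 6. Btg2, an antiproliferative early gene, was at 0.18, 0.37 and 0.64 in the butyrate-morphine arrays and 0.06, -0.10 and 0.04 in the morphine arrays, with a difference of 0.39 (95% interval 0.13 to 0.65, unadjusted p = 0.00849). In Dusp1, Npas4 and Btg2 butyrate-morphine array 3 was the highest of all arrays.

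The Fos, Egr1 and Nr4a1 values overlapped between groups. Fos, the classical marker of activated neurons, stood at 0.59, 0.62 and 1.22 in the butyrate-morphine arrays and 0.69, 0.51 and 0.51 in the morphine arrays. Only butyrate-morphine array 3 lay clear of the rest, and the difference was 0.24 (95% interval -0.14 to 0.62, unadjusted p = 0.178). Nr4a1, an orphan nuclear receptor, was at 0.85, 1.21 and 1.75 in the butyrate-morphine arrays and 1.26, 0.65 and 0.77 in the morphine arrays, with morphine array 1 above 2 of the butyrate-morphine arrays and a difference of 0.38 (95% interval -0.18 to 0.94, unadjusted p = 0.158). Intervals (given after the difference) for Fosb (0.20, 0.00 to 0.41), the synaptic gene Arc (0.12, -0.27 to 0.52), Egr1 (0.16, -0.14 to 0.47) and Junb (0.10, -0.09 to 0.29) included 0 as well, and each allows a gain above 1.2-fold.

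Glucocorticoid-responsive genes, which rise when the steroid binds its receptor, were above the baseline on average in both groups. Their mean over 25 probe sets was 0.43, 0.57 and 0.46 in the butyrate-morphine arrays and 0.39, 0.39 and 0.37 in the morphine arrays, with butyrate-morphine array 2 the highest. Of the 25, 3 were higher with butyrate at an unadjusted p under 0.05 (Per1, Dusp1 and the zinc finger gene Zbtb16), 0 were lower and 0 passed the adjusted threshold, beside 4.18% higher and 1.4% lower of all probe sets. The list's median was 0.095. Leaving out 1 array gave 2 to 5 higher (5 without morphine array 1 and 2 without butyrate-morphine array 2 or morphine array 3). Zbtb16 was at 1.15, 1.34 and 1.04 in the butyrate-morphine arrays and 1.05, 0.75 and 0.98 in the morphine arrays, a difference of 0.25. Sgk1, a kinase of salt and stress responses, had a difference and interval of -0.01, -0.18 to 0.15, with values of 0.95, 1.18 and 1.01 in the butyrate-morphine arrays and 0.99, 1.12 and 1.08 in the morphine arrays. The metallothionein Mt2 was at 0.41, 0.38 and 0.37 in the butyrate-morphine arrays and 0.08, 0.39 and 0.14 in the morphine arrays, where the value of morphine array 2 lay within the butyrate-morphine range and the difference and interval were 0.18, 0.00 to 0.37.

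Several chaperone genes of the endoplasmic reticulum were lower with butyrate. These genes answer unfolded protein through ATF6 and XBP1, which act at a bipartite element of the letters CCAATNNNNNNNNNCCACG. That element was sought on either strand of the 250 bases before the start. Of 15 measured genes of the list with a window, 6 held it in any window, beside 0.113% of all 32851 windows. Here too, a count of genes with the element is set beside a share of single windows. Of the 7 genes with a window that were lower at an unadjusted p under 0.05, 3 held it (Hspa5, Hsp90b1 and Pdia6), as did 3 of the 7 with no such difference (Calr, Creld2 and Dnajc3). The windows of the 2 main luminal chaperones of the list are shown with the element in capitals, since both were lower. They lie at chr2:34771840-34772089, plus strand (Hspa5), where the element begins 65 bases before the start, and at chr10:86705445-86705694, minus strand (Hsp90b1), where it begins 212 and 107 bases before the start.
Hspa5: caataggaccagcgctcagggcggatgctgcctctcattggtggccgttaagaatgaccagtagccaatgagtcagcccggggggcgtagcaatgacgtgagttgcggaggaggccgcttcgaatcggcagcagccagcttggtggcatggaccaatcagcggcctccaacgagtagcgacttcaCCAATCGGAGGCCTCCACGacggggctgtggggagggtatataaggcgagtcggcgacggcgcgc
Hsp90b1: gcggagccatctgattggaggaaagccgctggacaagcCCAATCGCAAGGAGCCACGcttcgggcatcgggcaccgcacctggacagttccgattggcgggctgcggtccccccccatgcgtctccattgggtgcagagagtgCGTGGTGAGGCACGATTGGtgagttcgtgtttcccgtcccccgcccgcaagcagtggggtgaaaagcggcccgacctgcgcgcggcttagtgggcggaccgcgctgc

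Hspa5 (BiP), the main chaperone of the compartment, was at -0.16, -0.30 and -0.30 in the butyrate-morphine arrays and 0.19, 0.02 and -0.03 in the morphine arrays, a difference of -0.31 (95% interval -0.48 to -0.15, unadjusted p = 0.00261). Sdf2l1, a component of the BiP complex, had the largest difference, -0.38 (95% interval -0.69 to -0.07, unadjusted p = 0.0233), but its morphine arrays were spread widely, at -0.54, -0.52 and -0.47 in the butyrate-morphine arrays and 0.21, -0.30 and -0.31 in the morphine arrays. Pdia4, a disulfide isomerase, was at -0.26, -0.18 and -0.36 in the butyrate-morphine arrays and 0.08, -0.13 and 0.02 in the morphine arrays, a difference of -0.26, while its other probe set was at -0.02. Hsp90b1 (GRP94) was at 0.00, -0.15 and -0.21 in the butyrate-morphine arrays and 0.02, 0.03 and 0.09 in the morphine arrays, a difference of -0.17. The degradation factor Herpud1 (-0.18), the stress transcription factor Ddit3 (CHOP, -0.22), the isomerase Pdia6 (-0.15) and the secreted factor Manf (-0.13) were lower without overlap between groups.

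Of 19 probe sets for 17 endoplasmic reticulum stress genes, 8 were lower at an unadjusted p under 0.05, against 1.4% of all probe sets, and 1 was higher, the pseudokinase gene Trib3 (0.15). None (0) passed the adjusted threshold. The list's median was -0.046, and other members, such as Xbp1 (0.01, -0.09 to 0.12), Hyou1 (0.00, -0.11 to 0.11) and Atf4 (0.02, -0.15 to 0.18), had intervals about 0. The count of lower probe sets was 4 without butyrate-morphine array 2 and 5 without butyrate-morphine array 3. The medians of the clock, immediate early, glucocorticoid, endoplasmic reticulum stress and choroid plexus lists kept their sign after median centring and after quantile normalization. Heat shock genes gave 1 lower of 18 probe sets (the chaperone Hsp90aa1, -0.13), 6 without morphine array 2 and 0 without butyrate-morphine array 2, for example, with a median of -0.065.

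**Figure D3:**
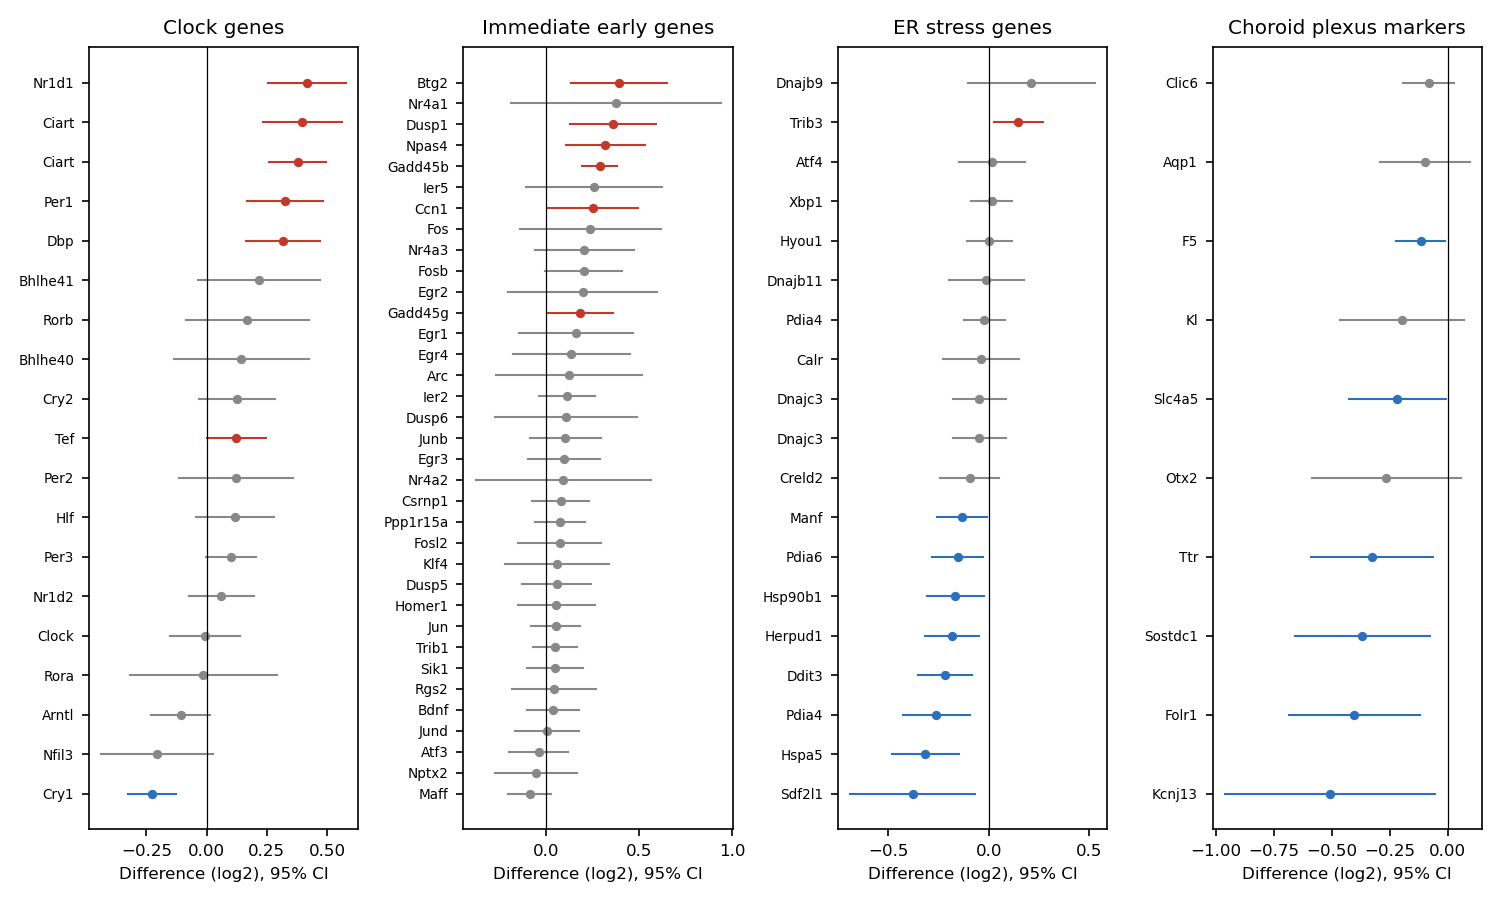
Difference between the groups (butyrate-morphine minus morphine, log2, x axis) with its 95% limma interval for each probe set of 4 gene lists. Red and blue mark an unadjusted p under 0.05, higher and lower with butyrate: 6 and 1 of 19 clock probe sets, 6 and 0 of 35 immediate early genes, 1 and 8 of 19 endoplasmic reticulum (ER) stress probe sets, and 0 and 6 of 10 choroid plexus markers.

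All 10 choroid plexus markers had a lower mean with butyrate, where 57% of all probe sets had a higher one, while the list mean was above the saline baseline in every array. The choroid plexus is the ventricular epithelium that makes cerebrospinal fluid, and it borders the dissected striatum. Ttr, its thyroid hormone carrier, was at 3.63, 3.17 and 3.46 in the butyrate-morphine arrays and 3.80, 3.79 and 3.65 in the morphine arrays, a difference of -0.33 (95% interval -0.59 to -0.07, unadjusted p = 0.0211). Kcnj13, its potassium channel, was at 2.36, 1.72 and 2.13 in the butyrate-morphine arrays and 2.80, 2.70 and 2.23 in the morphine arrays, with overlap between groups and a difference of -0.51. The folate receptor Folr1 (-0.40), the secreted inhibitor Sostdc1 (-0.37), coagulation factor F5 (-0.12) and the bicarbonate transporter Slc4a5 (-0.22) were the further members among the 6 lower at an unadjusted p under 0.05, beside 1.4% of all probe sets, and 0 passed the adjusted threshold. That count was 2 without butyrate-morphine array 2, morphine array 1 or morphine array 2, and 4 without butyrate-morphine array 1. The mean over the markers was 1.08, 0.83 and 1.10 in the butyrate-morphine arrays and 1.31, 1.35 and 1.13 in the morphine arrays, so butyrate-morphine array 2 was lowest and the median difference was -0.24. After quantile normalization 3 markers were lower on this criterion, with a median of -0.11. Igf2, a growth factor of meninges and choroid plexus, followed at -0.23, the 1 lower of 8 meningeal markers at an unadjusted p under 0.05.

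Markers of tissue next to the striatum overlapped widely between the groups. The cortical marker Slc17a7, a vesicular glutamate transporter, was at -0.18, 0.11 and -0.09 in the butyrate-morphine arrays and 0.17, -1.22 and -0.48 in the morphine arrays, and the mean over 7 cortical markers was -0.61 in morphine array 2. Thalamic and septal markers were spread from -0.08 to 0.42 in the butyrate-morphine arrays and from 0.04 to 0.58 in the morphine arrays. Neither list had a member at an unadjusted p under 0.05 (0 of 7 and 0 of 9), beside 5.58% of all probe sets. Without morphine array 1, however, they had 4 cortical markers higher and 3 thalamic and septal markers lower. Their part in the other differences was not tested.

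Among vessel and glial markers, 2 endothelial and 2 oligodendrocyte genes were higher at an unadjusted p under 0.05, beside 4.18% of all probe sets. Of 11 endothelial markers, the adhesion molecule Pecam1 (0.23) and the VEGF receptor Flt1 (0.12) were higher at an unadjusted p under 0.05, and the tight junction gene Cldn5 was at -0.65, -0.83 and -0.74 in the butyrate-morphine arrays and -0.54, -0.46 and -0.70 in the morphine arrays, a difference and interval of -0.17, -0.35 to 0.00. Of 10 oligodendrocyte markers, the myelin genes Cnp (0.24) and Mag (0.14) were higher on the same criterion, and the median was 0.083; without butyrate-morphine array 1 there were 0. On that criterion, microglia (0 of 10), astrocyte (0 of 9) and interneuron (0 of 9) markers had none, with medians of 0.046, 0.026 and 0.032; the microglia median was -0.0061 after quantile normalization. Of the blood markers Alas2, an enzyme of haem synthesis in red cells, was at 0.15 and Slc4a1, the red cell anion exchanger, at 0.0075, or -0.0037 after median centring.

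Of 16 dopamine signalling genes, 12 had a higher mean with butyrate in the deposited values, beside 57% of all probe sets. The same held for 7 of 8 direct-pathway and 5 of 5 indirect-pathway neuron markers. The share over all probe sets was 49.9% after median centring and 48.4% after quantile normalization. Under these 2 scalings the dopamine list's median was 0.072 and 0.049. The direct-pathway median was 0.13 and 0.14, and the indirect-pathway median 0.046 and 0.038. Ppp1r1b, which encodes the dopamine- and cAMP-regulated phosphoprotein DARPP-32, was at 0.02, 0.16 and 0.06 in the butyrate-morphine arrays and -0.13, -0.11 and -0.11 in the morphine arrays. It was above the baseline with butyrate and below it without, and differed by 0.20 (95% interval 0.09 to 0.31, unadjusted p = 0.00393). Drd1, the D1 dopamine receptor, was at -0.12, 0.10 and 0.00 in the butyrate-morphine arrays and -0.16, -0.19 and -0.22 in the morphine arrays, a difference of 0.18 (95% interval 0.04 to 0.33, unadjusted p = 0.0207), and the adenylyl cyclase Adcy5 differed by 0.12. These 3 were the dopamine signalling genes at an unadjusted p under 0.05 (4.18% of all probe sets were higher on that criterion), and the list's median was 0.084. The D2 receptor gene Drd2 had a difference and interval of 0.11, 0.00 to 0.23. Without butyrate-morphine array 3 or morphine array 3 the count was 1. Of 8 direct-pathway markers, the muscarinic receptor Chrm4 (0.28) and Drd1 were higher, with a median of 0.14; of 5 indirect-pathway markers 0 passed, with a median of 0.057. Without morphine array 1 there were 4 such direct-pathway markers, and 1 without butyrate-morphine array 2 or 3 or morphine array 2. No member (0) of these lists passed the adjusted threshold.

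In the opioid system, the kappa receptor had a larger difference than the mu receptor on which morphine acts; the gap between these differences was not tested. Oprk1 was at 0.12, 0.30 and 0.24 in the butyrate-morphine arrays and 0.07, -0.08 and -0.16 in the morphine arrays, a difference of 0.28 (95% interval 0.11 to 0.45, unadjusted p = 0.00602), with no overlap. Oprm1, the mu receptor (difference and interval -0.01, -0.13 to 0.11), and Oprd1, the delta receptor (0.11, -0.13 to 0.35), overlapped between groups. The precursors Penk (0.06, -0.04 to 0.15) and Pdyn (0.16, -0.02 to 0.34) had intervals that included 0, while Pnoc, the nociceptin precursor, was lower at -0.30. Thus 1 of 12 genes was higher and 1 lower at an unadjusted p under 0.05, beside 4.18% and 1.4% of all probe sets. Among 33 probe sets of glutamate and GABA receptors, 0 were higher and 1 was lower on that criterion, against 2 higher and 3 lower without morphine array 1. The 1 was the GABA receptor subunit Gabrg1 at 0.19, -0.04 and 0.03 in the butyrate-morphine arrays and 0.28, 0.30 and 0.40 in the morphine arrays, a difference of -0.26 (95% interval -0.42 to -0.10, unadjusted p = 0.00567).

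Genes tied directly to butyrate's known action had few members at an unadjusted p under 0.05 at 1 h after the challenge. The challenge came 7 days after the last butyrate. The share over all probe sets was 5.58%, and whether these lists depart from it was not tested. None (0 of 27 probe sets) of the histone acetylation genes had an unadjusted p under 0.05, and their median was 0.019. The deacetylases Hdac1 (0.00, -0.13 to 0.12), Hdac2 (0.06, -0.09 to 0.22) and Hdac3 (0.06, -0.05 to 0.18) had intervals about 0, as did the acetyltransferase genes Crebbp (0.01, -0.11 to 0.13) and Ep300 (-0.02, -0.21 to 0.17). The lowest p of this list belonged to the acetyl-lysine reader Brd2 (0.11, -0.01 to 0.22) and to Hdac6, a cytoplasmic deacetylase (0.10, -0.02 to 0.21). Of 16 genes widely reported to rise with deacetylase inhibitors, Gadd45b alone had an unadjusted p under 0.05, while gelsolin (Gsn, 0.11, -0.08 to 0.30) and Bdnf (0.04, -0.10 to 0.18) did not. Of 20 genes that carry, sense or oxidise butyrate, 2 were higher at an unadjusted p under 0.05 (beside 4.18% of all probe sets) and 0 lower, but 0 were higher and 2 lower without butyrate-morphine array 1. The 2 were Hadh, an enzyme of short-chain fatty acid oxidation, at 0.28, 0.07 and 0.21 in the butyrate-morphine arrays and -0.08, -0.01 and 0.03 in the morphine arrays (difference 0.20), and the monocarboxylate transporter Slc16a7 (0.20). Slc16a1, a transporter of butyrate, had a difference and interval of -0.11, -0.25 to 0.02. Respiratory chain genes had 0 of 35 probe sets on that criterion, with a median of 0.004; without morphine array 3 there were 4 higher and 5 lower.

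**Figure D4:**
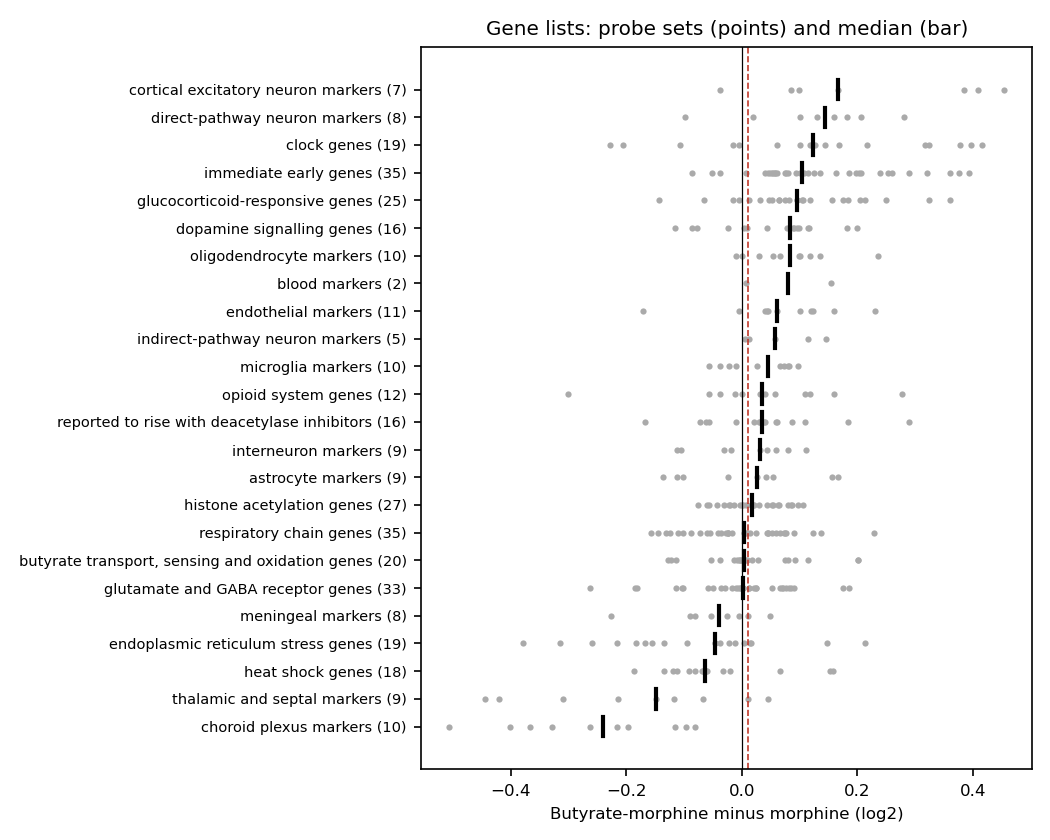
Difference between the groups (butyrate-morphine minus morphine, log2, x axis) for every measured probe set of 24 gene lists (grey points; number in brackets), with the list's median as a black bar. The dashed red line is the median of all 21780 probe sets, 0.011, and the choroid plexus list lies farthest below it, at -0.24.

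Differences from saline were next compared between the groups gene by gene. The labels conflict on the saline group's challenge. What part responses to morphine or differences in dissected tissue had was not tested. To avoid choosing genes by the morphine arrays alone, the probe sets were taken that differed from saline in the mean of both groups (limma on 12 arrays, adjusted p under 0.05; 590 higher, 2.71% of those tested, and 382 lower, 1.75%), a choice that does not favour either group. That fit includes the 6 saline arrays, whose 3 mirrored pairs hold 3 independent values and understate the spread, so the number of probe sets chosen may be too large. The values are given without a test of the set. A choice by adjusted p favours probe sets of little spread, which can raise their counts at an unadjusted p. Among the 590 higher than saline, the median difference was 0.021 (quartiles -0.04 and 0.091), and 59.0% were higher with butyrate than without, beside 57.0% of all probe sets. In the limma fit of the 6 arrays, 4.18% of all probe sets were higher and 1.4% lower at an unadjusted p under 0.05. Of the 590, 57 were higher and 36 lower on that criterion. Their mean was 0.29, 0.27 and 0.26 in the butyrate-morphine arrays and 0.25, 0.25 and 0.28 in the morphine arrays, and the groups overlapped. Of the 382 lower than saline, 31 were higher with butyrate and 9 lower on that criterion. Among these 382, the median difference was 0.023 and 62.8% had a higher mean with butyrate. That median turned to -0.015 after quantile normalization, and was 0.012 after median centring and 0.0088 without morphine array 3, so its direction depended on the scaling. Their mean was -0.19, -0.21 and -0.18 in the butyrate-morphine arrays and -0.18, -0.22 and -0.25 in the morphine arrays. The means of the risers, 0.275 with butyrate and 0.256 without, differed by less than the range of the 3 arrays in either group.

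Single differences from saline went either way. The part of choroid plexus tissue in those of Ttr, Kcnj13, Sostdc1 and Kl was not tested. Of the 10 largest rises over saline, the choroid plexus genes Ttr, Kcnj13 and Sostdc1 and Lbp were smaller with butyrate at an unadjusted p under 0.05, whereas Dusp1 and Zbtb16 were larger, and 0 passed the adjusted threshold. Of all probe sets, 1.4% were lower and 4.18% higher on that criterion. Kl (difference and interval -0.20, -0.46 to 0.07) and Nr4a1 (0.38, -0.18 to 0.94) overlapped between groups, with intervals that included 0. Polr3e, a subunit of RNA polymerase III, was at 1.37, 1.51 and 1.28 in the butyrate-morphine arrays and 0.93, 1.57 and 1.40 in the morphine arrays, a difference and interval of 0.09, -0.27 to 0.45, and Sgk1 did not separate. Of the 10 largest falls, Trim59, a RING finger gene, was closer to the baseline with butyrate, at -0.06, -0.34 and -0.33 in the butyrate-morphine arrays and -0.49, -0.73 and -0.43 in the morphine arrays, a difference of 0.31 (95% interval 0.07 to 0.54, unadjusted p = 0.0182). Ago4, an argonaute of small RNA silencing, was lower with butyrate, at -0.41, -0.52 and -0.47 in the butyrate-morphine arrays and -0.21, -0.34 and -0.32 in the morphine arrays, a difference of -0.18 (95% interval -0.31 to -0.06, unadjusted p = 0.0112). The VEGF receptor Kdr was at -0.53, -0.57 and -0.67 in the butyrate-morphine arrays and -0.59, -0.65 and -0.66 in the morphine arrays, a difference and interval of 0.04, -0.08 to 0.17. Together with Kdr and Cldn5, the iron exporter Slc40a1 (0.09, 0.00 to 0.19), the microglial receptor P2ry13 (0.07, -0.05 to 0.19), the exchange factor Rasgef1b (0.08, -0.05 to 0.20), the GTPase Gbp4 (0.05, -0.07 to 0.17), the chemokine Cxcl12 (0.02, -0.12 to 0.16) and the cholecystokinin receptor Cckbr (0.03, -0.26 to 0.32) had intervals that included 0.

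**Figure D5:**
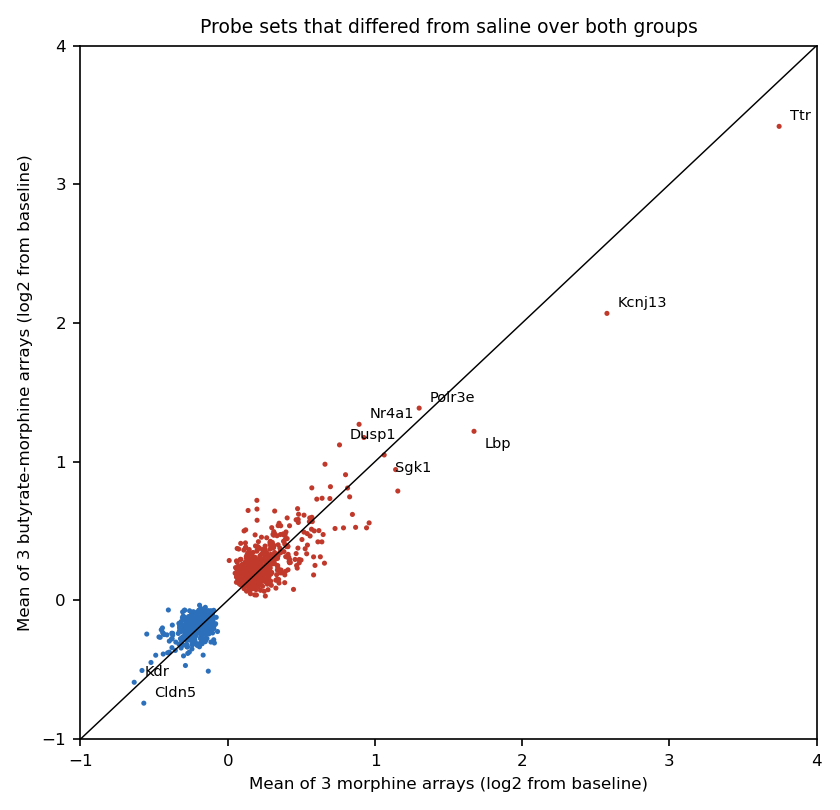
Mean of the 3 butyrate-morphine arrays (y axis) against the mean of the 3 morphine arrays (x axis), both as log2 difference from baseline, for the probe sets that differed from saline over both groups (590 higher in red, 382 lower in blue). The diagonal marks equal values: Ttr, Kcnj13 and Lbp lie below it, Dusp1 and Nr4a1 above it, and most points lie close to it.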

How the data were processed

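The authors deposited 1 table of 28815 rows for 12 arrays. The deposited values, as the authors centred them, were read as log2, although no source states the base. Per the labels, each array held pooled RNA of 4 animals. The 6 saline arrays form 3 mirrored pairs whose values cancel (tolerance 1e-06), so the values are differences from a saline baseline. How the arrays were normalized and summarised is unknown from the sources used here. Direction was taken as deposited. Names come from GEO's platform annotation, which can be old: 21780 rows with 1 symbol (19935 genes) were tested, 1605 with several and 5430 with none were not. RefSeq GRCm38.p6 held the Entrez ID of 21689 tested rows and gave 0 other symbols.

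Limma 3.58.1 in R 4.3.3 (lmFit, eBayes, 2-sided) was fitted to the 3 butyrate-morphine and 3 morphine arrays alone, with 4 residual and 3.39 prior degrees of freedom, because the mirrored saline arrays understate the spread. Intervals are limma's at 95%, and their number of arrays limits the precision. The members and the 24 gene lists were chosen with earlier results of these data known (338 of 371 listed symbols measured). Named are, since fewer than 10 probe sets passed, the 12 of lowest p in each direction whose arrays do not overlap. Also named are 2 members of lowest p per list, and the 10 largest rises and falls in the mean of both groups against saline. Predicted, unnamed and receptor genes of smell and taste were passed over. Other genes in the text were picked with their values in view. The procedure was tested on simulated data. Alternatives were all 12 arrays, a replicate block, quantile normalization, median centring, other row sets, trend and robust eBayes, array weights, leaving out single arrays and other thresholds. Among the row sets was that of values stored as 8 or more before centring, read from the rounding step. Coordinates are printed only for promoter windows.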

Additional observations from a re-analysis of the deposited data

How the results depend on the processing

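The count of 0 probe sets past the threshold held under all 17 alternatives, including adjusted p under 0.1. The smallest adjusted p lay between 0.101 (Acer2, all 12 arrays) and 0.9998. Of the 17, the alternative that added a minimum of 1.2-fold to the threshold could only give 0. Leaving out each array in turn gave 0 to 0 calls. At an unadjusted p under 0.05 the count of 1216 was 1898 with all 12 arrays, 344 among 5225 probe sets stored at 8 or more before centring (fewer were tested) and 706 to 1866 with 1 array left out. With the replicate number as a block it was 837, with 0 past the threshold. Deviations of same-numbered arrays correlated at -0.10, -0.27 and -0.23. These 3 values cannot settle whether the numbers pair the pools, and pairing was not tested. For probe sets whose mean of both groups exceeded saline, the median difference of 0.021 was 0.017 to 0.037 with 1 array left out. It was highest without morphine array 3. For those lower than saline, the median of 0.023 was 0.0088 (without morphine array 3) to 0.041 (without morphine array 1) with 1 array left out and -0.015 after quantile normalization, which forces the centred arrays to 1 distribution. Under median centring these medians were 0.0093 and 0.012. The 24 leading genes kept their sign in all 288 refits. Their groups were chosen not to overlap, so only median centring and quantile normalization could have changed a sign. Of 780 values of named probe sets, 4 turned sign, all of Slc4a1: -0.0037 under median centring, and -0.052 to 0.074 with 1 array left out. Of 288 list medians, 10 moved by more than the spread between arrays; the cause was not tested. With single arrays left out, list counts of 3 or fewer at an unadjusted p under 0.05 changed by at most 2, apart from the cortical, thalamic and septal, heat shock and respiratory lists given above.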

Other observations

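Oxt and Avp, neuropeptide genes of the hypothalamus, had lower values with butyrate and missed the adjusted threshold; they were chosen after their values were seen. Oxt, the oxytocin precursor made by hypothalamic neurons, was at -0.15, -0.23 and -0.08 in the butyrate-morphine arrays and 0.03, 0.90 and 0.72 in the morphine arrays. Morphine arrays 2 and 3 were high while morphine array 1 was near the baseline. The difference of -0.70 (95% interval -1.17 to -0.23, unadjusted p = 0.00929) was 1 of the 3 of at least 1.5-fold. Avp, the vasopressin precursor of neighbouring cells, was at -0.21, -0.36 and -0.32 in the butyrate-morphine arrays and -0.17, 0.23 and -0.07 in the morphine arrays, a difference of -0.30 (95% interval -0.54 to -0.06, unadjusted p = 0.0219). The 2 others of that size were Rmrp, the RNA of a mitochondrial RNA-processing enzyme, at -0.77, -0.75 and -0.54 in the butyrate-morphine arrays and 1.12, -0.21 and -0.81 in the morphine arrays, and an olfactory receptor, Olfr767, at -0.45, -1.97 and -0.08 in the butyrate-morphine arrays and -0.56, 0.62 and -0.74 in the morphine arrays. Both overlapped between groups, with intervals that included 0 (-0.72, -1.71 to 0.28 and -0.61, -1.85 to 0.63).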
